A study of Mus musculus with 9 samples.

Results

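Genes that restrain or carry out cell death were followed on 9 Affymetrix MG-U74v2 arrays of retinal endothelial cells. The set covers the BCL2 family, the caspases, the death receptors and their partners, 36 genes in all. A gene entered when the platform annotation gave a probe set its symbol and no other. By that rule 31 genes with 60 probe sets were found, out of 15964 genes with 29131 such probe sets on the arrays. Bax, Bcl2a1a, Ripk1, Tnfrsf10b and Trp53 matched no probe set under the rule and are not analysed here. All arrays carried GFP-positive cells sorted from retinas of homozygous Tie2-GFP mice at postnatal day 8, after intraperitoneal APB5, an antibody that neutralizes the receptor PDGFRb, from postnatal day 0 to 7. Designs A, B and C of the array hold different probe sets, and each has 3 replicates here.

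No untreated group is among the samples used here, so no value here measures the effect of the antibody, and no test between conditions was possible. What the arrays give is how high the signal of each gene stood, how closely replicates agreed and how far probe sets of the same gene agreed. The GFP is driven by the Tie2 promoter, which is also active in some blood cells. Retinas were pooled and digested with papain at body temperature, and propidium iodide, a dye that enters dead cells, was added before sorting. Whether the replicates are separate collections of animals is not stated, so an SD here describes arrays and may be technical in origin.

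In the mitochondrial pathway of apoptosis, BH3-only proteins sense stress and either block the pro-survival BCL2 proteins or activate the effectors Bax and Bak1. The effectors, with which Bok is grouped here, open the outer mitochondrial membrane. Released cytochrome c then joins Apaf1 to activate the initiator caspase Casp9, which activates the executioner caspases. Death receptors such as Fas reach the caspases through Fadd and Casp8 instead, with Cflar as a brake. The inhibitor of apoptosis proteins Xiap, Birc2 and Birc3 act further down. In the developing retina, regression and pruning of vessels involve the death of endothelial cells, for which the balance of Bcl2l11 (Bim) and its BCL2 partners is a known determinant.

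Values are linear intensities as deposited. A gene's position is the percentile of its probe set among all probe sets of the same array, from 0 to 100. Probe sets differ in how well they hybridise, so positions of different genes describe probes as well as transcripts. In sorted cells a low signal also cannot tell fewer expressing cells from less RNA per cell. A probe set counted as above the floor when it exceeded the 40th percentile of its array on all 3 arrays of its design.

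The sorted cells carried the endothelial markers. All 8 endothelial marker genes (14 of 14 probe sets) were above the floor, with a median position of 95.1 and a range from Pecam1 at 52.4 to Cldn5 at 99.2. The median was 21.9 for 9 macrophage and microglial genes (4 above the floor), 41.1 for 7 granulocyte and lymphocyte genes (3 above), 45.5 for 7 mural genes (5 above), 34.8 for 7 photoreceptor and neuronal genes (4 above) and 27.0 for 5 glial genes (3 above). Of 37 genes specific to liver, pancreas, testis and other foreign tissues (some, such as Ttr and Sst, also made in the eye), 19 were also above the floor, so passing it does not show that a transcript was present. Replicate arrays correlated with r between 0.981 and 0.987 across probe sets (log2 intensity), and array medians lay between 32.3 and 44.5.

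Promoter sequences of 5 members are shown to set the extremes of position side by side. Among the 21 members with a single start in the RefSeq table of GRCm38.p6, Mcl1 and Bok stood highest on the arrays, and Fasl, Diablo and Casp1 stood lowest. Each line gives the 100 bases before the start, 5′ to 3′ on the gene's strand, with capitals marking a GC box (GGGCGG on either strand).
Mcl1, chr3:95658621-95658720, + strand: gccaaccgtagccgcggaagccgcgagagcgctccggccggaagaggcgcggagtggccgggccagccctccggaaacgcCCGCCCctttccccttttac
Bok, chr1:93685475-93685574, + strand: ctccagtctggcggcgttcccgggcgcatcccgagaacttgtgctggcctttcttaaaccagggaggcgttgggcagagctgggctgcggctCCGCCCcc
Fasl, chr1:161788496-161788595, - strand: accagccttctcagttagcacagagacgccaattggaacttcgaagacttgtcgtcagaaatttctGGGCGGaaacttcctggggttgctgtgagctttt
Diablo, chr5:123524165-123524264, - strand: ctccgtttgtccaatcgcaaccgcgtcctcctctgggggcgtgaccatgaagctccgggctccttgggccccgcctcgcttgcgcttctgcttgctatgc
Casp1, chr9:5298417-5298516, + strand: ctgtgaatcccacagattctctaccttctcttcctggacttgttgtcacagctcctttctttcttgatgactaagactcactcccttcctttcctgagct

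These windows held 14 CpG dinucleotides for Mcl1, 8 for Bok, 4 for Fasl, 9 for Diablo and 0 for Casp1. High position and CpG number did not go together in every member, since Diablo had more than Bok. A GC box lay in the windows of Mcl1, Bok and Fasl. Over full windows of 300 bases (250 before and 50 after the start), 29 members (all but Bik and Pmaip1) had 41 windows. The median was 20.5 CpG for members with a probe set above the floor and 9 for the others. Over all measured genes the same medians were 19 and 9, so this split is no property of the members alone. A GC box lay in 61.0% of member windows and in 54.6% of windows of all measured genes. The TATA box (TATAAA on either strand, searched before the start) lay in 2 of 41 member windows, belonging to Cflar and Xiap, and in 8.48% of all. The inflammatory caspases Casp1, Casp4 and Casp12, whose windows all lie near each other on chromosome 9, had between 3 and 5 CpG in each of 4 windows. The 37 windows of the other members held between 1 and 46, a range that includes these counts. Casp8, which was above the floor, had 5.

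The death and survival genes passed the floor about as often as other genes. Of the 31 genes, 22 (71.0%) had a probe set above the floor, against 72.4% of all named genes. Of the 60 probe sets, 38 (63.3%) were above it, against 58.7% of all. The genes not above it were Bcl2l2, Bad, Diablo, Fas, Fasl, Fadd, Casp1, Casp4 and Casp12. Over the 90th percentile lay 9 probe sets (15.0%, against 10.7% of all), from 7 genes, namely Mcl1, Bcl2, Xiap, Pmaip1, Bmf, Bok and Casp2. Under the 10th percentile lay 4 probe sets (6.67%, against 9.06% of all), from Xiap and Casp1. On design A a stricter threshold was available, the 90th percentile of 43 probe sets of tissue-foreign genes, and 8 of 27 members (29.6%) passed it, against 40.5% of all named genes there. Of the designs, A held 40 member probe sets with 22 above the floor (55.0%, against 58.5% of all on that design), B held 10 with 9 above (against 59.3%) and C held 10 with 7 above (against 58.1%). The 8 members past the stricter threshold were Bcl2, Bcl2l1, Mcl1, Birc2, Bcl2l11, Bok, Casp2 and Casp6.

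**Figure D1:**
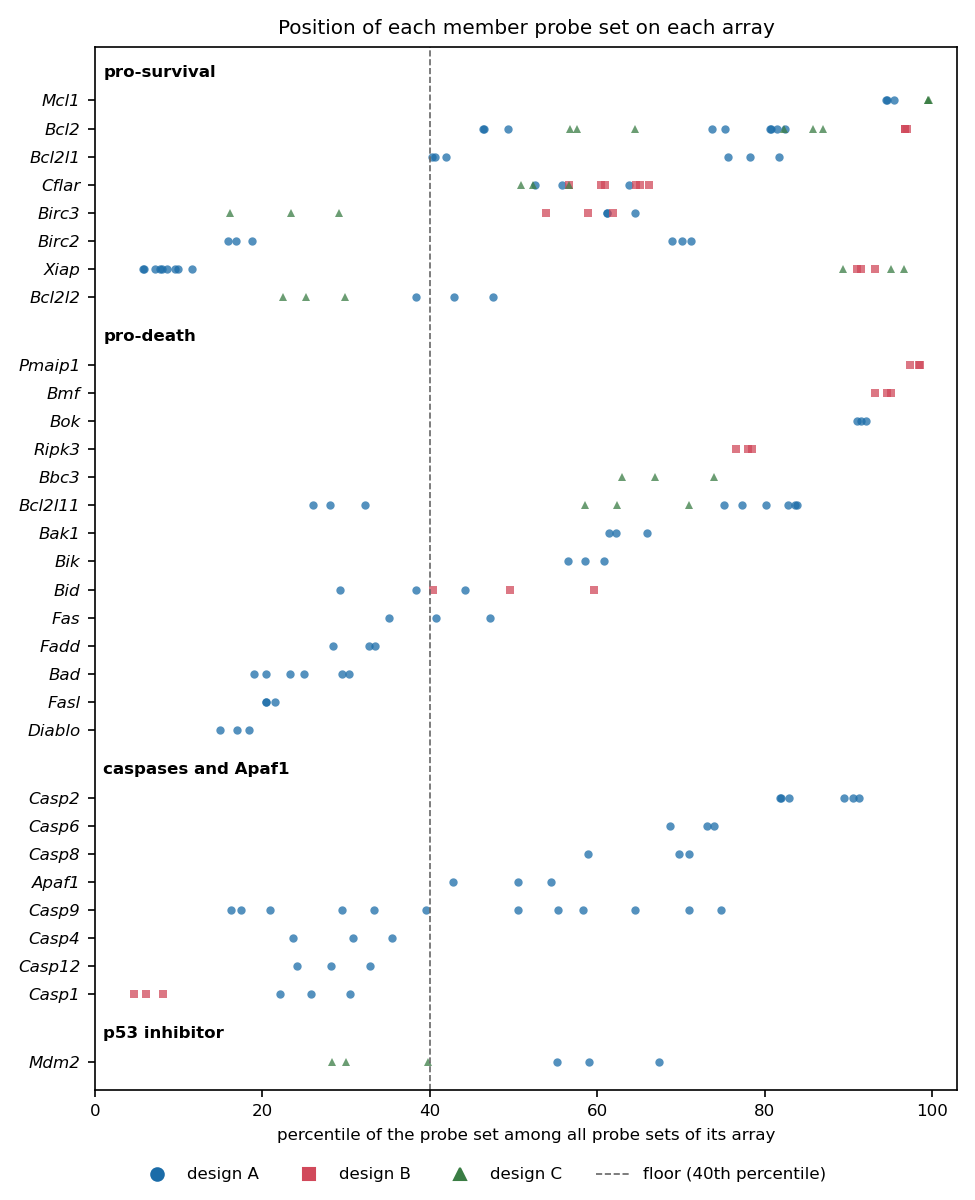
Percentile of each member probe set on each array (horizontal axis), by gene and role, with 1 symbol per array coloured by design and a dashed line at the 40th percentile. Mcl1, Pmaip1, Bmf and Bok lie above percentile 90 on every array, Casp1, Casp4 and Casp12 lie left of the line, and Xiap has symbols at both ends.

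Among the pro-survival BCL2 proteins, Mcl1 had the highest position. Mcl1, a short-lived guardian that binds Bcl2l11 and Pmaip1, read 514, 455 and 413 on design A and 1068, 1007 and 1002 on design C. All arrays placed it high, at percentile 94.9 ± 0.49 (SD, n = 3) on design A and 99.6 ± 0.068 (SD, n = 3) on design C. The design C probe set ends in _f, a mark of shared sequence in the probe set's name.

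Bcl2, the founding member of the family, had 6 probe sets, all above the floor. The design B probe set read 421, 372 and 387, at percentile 96.9 ± 0.14 (SD, n = 3). The lowest, on design A, read 39.6, 43.3 and 40.5, at percentile 47.4 ± 1.7. The replicates of each probe set agreed far better than the probe sets did, which spanned 49.5 percentile points. The remaining 4 lay between percentiles 59.6 and 85.0.

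Bcl2l1 (Bcl-xL) had a pair of probe sets on design A. The higher read 142, 121 and 99.4, at percentile 78.5 ± 3.0 (SD, n = 3). The lower read 35.1, 34.8 and 35.0 against floors of 33.5, 34.2 and 34.9, so it passed the floor by the narrowest margin of all members. Bcl2l2 (Bcl-w) read 36.1, 41.5 and 33.5 on design A and exceeded the floor on 2 of 3 arrays. On design C it read 19.6, 15.5 and 17.1, below the floor on all arrays.

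The inhibitor of apoptosis genes split between probe sets. Xiap, which binds and inhibits caspases directly, read 262, 214 and 212 on design B and 277, 292 and 131 on design C, at percentiles 91.9 ± 1.1 and 93.7 ± 3.8 (SD, n = 3 each). Its 3 probe sets on design A read between 9.33 and 14.7, at percentiles 6.24 to 9.39. Designs B and C thus placed Xiap near the top of the array and design A near the bottom, a span of 87.5 points, the widest of the 15 members with several probe sets. The mean over its probe sets, 42.1, describes none of them.

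Birc2 (cIAP1), a ubiquitin ligase of TNF receptor complexes, read 81.5, 79.3 and 82.7 in a probe set at percentile 70.1 ± 1.1 (SD, n = 3). A further probe set of it, whose name ends in _f, read 17.5, 17.3 and 19.7, at percentile 17.2. Birc3 (cIAP2), which lies near Birc2 on chromosome 9, read 66.9, 60.4 and 59.2 on design A and 48.2, 54.2 and 60.8 on design B. On design C it read 16.1, 19.1 and 12.4, below the floor. Cflar, the FLIP protein that holds Casp8 in check, was the inhibitor whose probe sets agreed most closely, with all 4 above the floor between percentiles 53.3 and 64.0.

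**Figure D2:**
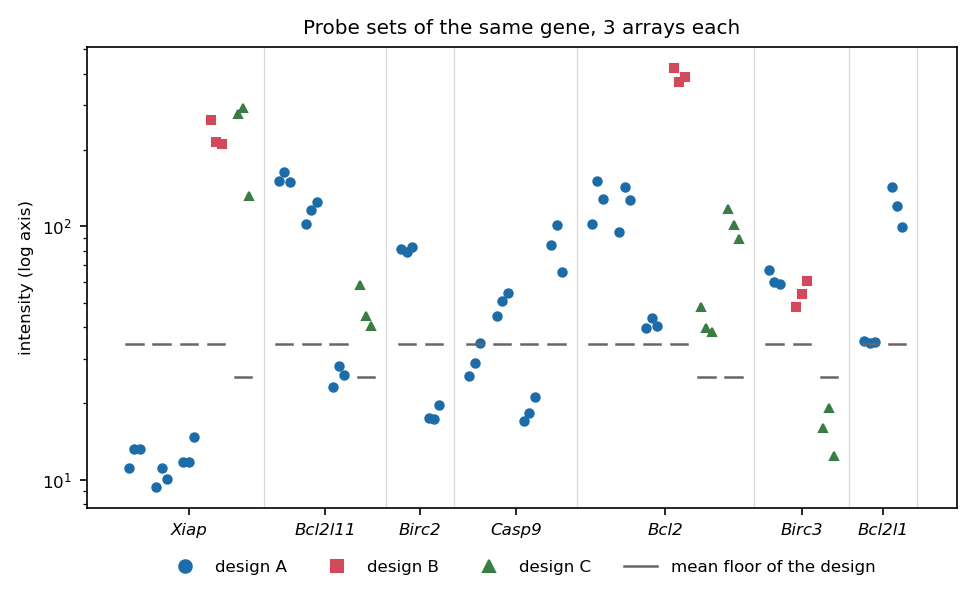
Intensity (log axis) of each probe set of 7 members, with 3 symbols per probe set for the 3 arrays, coloured by design, and a grey bar at the mean floor of that design. The 3 design A probe sets of Xiap lie below 15 and its design B and C probe sets at 131 or higher, and the probe sets of Bcl2l11, Birc2, Casp9 and Birc3 also lie on both sides of the bars.

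Among the BH3-only genes, Pmaip1 and Bmf stood highest. Pmaip1 (Noxa), a p53 target whose protein binds Mcl1, read 454, 548 and 617 on design B, at percentile 98.1 ± 0.64 (SD, n = 3). Bmf, which is linked to the cytoskeleton in unstressed cells, read 302, 296 and 249 on design B, at percentile 94.3 ± 1.0 (SD, n = 3). Each of these genes rests on 1 probe set, and in both the 3 arrays placed it within 2 percentile points.

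Bcl2l11 (Bim), which binds all the pro-survival BCL2 proteins, had 4 probe sets. The highest read 151, 164 and 149 on design A, at percentile 83.4 ± 0.57 (SD, n = 3), and another read 102, 116 and 124. A probe set on design A whose name ends in _g read 23.2, 28.1 and 26.0, below the floor. The design C one, whose name ends in _i, read 58.6, 44.4 and 40.3, above it. Thus 3 of 4 probe sets passed.

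Bbc3 (Puma), also a p53 target, read 51.4, 44.9 and 63.7 on design C, at percentile 67.9 ± 5.6 (SD, n = 3), from a probe set marked _r for a reduced rule set. Bik, a BH3-only protein of the endoplasmic reticulum, read 59.1, 52.4 and 55.1, at percentile 58.6 ± 2.2. Bid, which Casp8 cleaves to join the receptor route to the mitochondrial one, read 37.3, 25.9 and 33.4 on design A and 43.2, 55.4 and 35.5 on design B, the latter from a probe set marked _f. It passed the floor on 1 of 3 arrays of design A and on all of design B. Bad, which growth factor signalling keeps phosphorylated and inactive, was below the floor in both of its probe sets, which read 18.8 to 23.0 and 21.5 to 27.0.

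Of the effectors, Bok read 305, 332 and 269 and Bak1 70.1, 62.4 and 59.9, both on design A. Bok lay at percentile 91.6 ± 0.54 and Bak1 at 63.2 ± 2.4 (SD, n = 3 each). Diablo (Smac), which is released from mitochondria and removes the inhibitors of apoptosis from caspases, read 18.4, 17.9 and 17.0, at percentile 16.7 ± 1.7. It was the lowest pro-death member.

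Of the 4 measured members grouped as the death receptor arm, Fas, Fasl and Fadd stood low and Ripk3 higher, with 1 probe set each. The arm as a whole is not described by them, since the TNF receptor Tnfrsf1a, outside the set, stood at 81.2. Fas, the receptor, read 40.4, 30.2 and 35.4 in a probe set whose name ends in _s, and exceeded the floor on 2 of 3 arrays. Its ligand Fasl read 19.7, 20.8 and 20.9, and the adaptor Fadd read 28.0, 28.9 and 26.2. These readings lay below the floor on every array. Ripk3, the kinase of necroptosis, read 104, 96.9 and 106 on design B, at percentile 77.7 ± 0.96 (SD, n = 3). Leukocytes can carry Fas and Fasl, and the granulocyte and lymphocyte markers ranged from percentile 15.0 (Cd3e) to 67.0 (Cd2), 3 of 7 of them above the floor. Their part in these readings was not tested.

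Among the caspases, Casp2 stood highest. Casp2, an initiator caspase activated on the PIDDosome, read 249, 300 and 256 in a probe set at percentile 90.4 ± 0.91 and 145, 146 and 143 in another, marked _f, at 82.2 ± 0.58 (SD, n = 3 each). Casp6, the only executioner caspase in the set, read 76.4, 93.3 and 92.5, at percentile 71.9 ± 2.8. Casp8, the initiator of the receptor route, read 80.2, 85.5 and 55.6, at percentile 66.5 ± 6.6, with replicate 3 below the others. The class of executioners is therefore a single gene here, and no comparison of it as a class was made.

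Casp9, the initiator of the mitochondrial route, had 4 probe sets on design A, of which 2 were above the floor. The highest read 84.2, 101 and 65.8, at percentile 70.1 ± 5.2 (SD, n = 3), and the lowest read 17.0, 18.3 and 21.2, at percentile 18.2 ± 2.4. Apaf1, its activating scaffold, read 44.3, 36.6 and 49.4, at percentile 49.2 ± 6.0, above the floor on all arrays.

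The inflammatory caspases stood together at the lower end. Casp1, which matures interleukin-1 beta, read 23.1, 26.8 and 22.0 on design A. On design B it read 11.6, 9.84 and 9.14, from a probe set whose name ends in _i. Casp4, which senses bacterial lipopolysaccharide, read 30.1, 22.3 and 27.9. Casp12 read 28.1, 22.5 and 26.0. None of their 4 probe sets exceeded the floor on any array, and their gene positions lay between 16.2 and 30.0.

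Mdm2, the ubiquitin ligase that restrains p53, read 73.1, 50.6 and 55.8 on design A, at percentile 60.6 ± 6.2 (SD, n = 3). On design C it read 18.7, 19.7 and 25.3, below the floor. Its probe sets thus fell on both sides.

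Set side by side by role, the groups had no stable order. The median position over genes, each the mean over its probe sets, was 53.3 ± 2.0 for 8 pro-survival genes, 60.9 ± 1.5 for 14 pro-death genes and 46.8 ± 3.1 for the 8 genes of the caspase group, 7 caspases and Apaf1 (SD over 3 replicates taken by number). All named genes had 52.1, and 52.2, 52.2 and 52.3 on replicates 1, 2 and 3 taken singly. Each SD of a median is the spread of such single-replicate medians and is not centred on the printed value. Genes with a probe set above the floor were 7 of 8 pro-survival, 9 of 14 pro-death and 5 of 8 in the caspase group, against 72.4% of all named genes. Pro-survival genes had 3.25 probe sets each, pro-death genes 1.36 and caspases with Apaf1 1.62, and a gene with more probe sets can pass more easily. With the highest probe set of each gene, the medians became 74.3, 60.9 and 57.9, against 65.9 for all genes, so pro-survival genes then came first. On design A alone they were 58.6, 39.2 (10 genes) and 46.8, against 51.8, and pro-death genes came last, because Pmaip1, Bmf, Ripk3 and Bbc3 have their probe sets on designs B and C. With plain probe sets alone pro-survival genes (62.3) also passed pro-death genes (60.9). Caspases with Apaf1 stayed below the median of all named genes in each of the 7 other ways of computing that were run and in the main one. Each of these ways kept the inflammatory caspases in the group, so the result does not describe the apoptotic caspases by themselves. By role, the main median was 28.4 for 3 inflammatory caspases and 66.5 for 3 initiator caspases (Casp9 alone 44.3), with Casp6 at 71.9 and Apaf1 at 49.2.

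**Figure D3:**
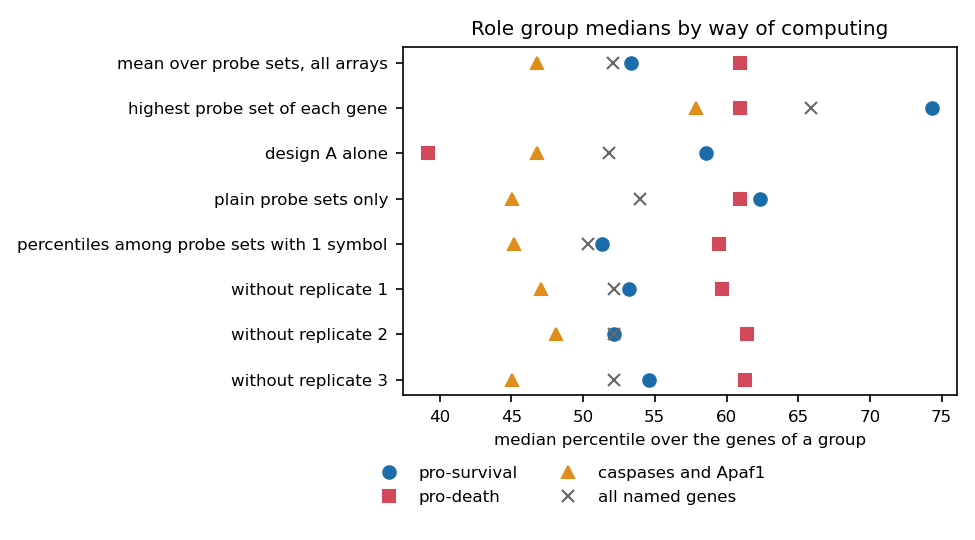
Median percentile over the genes of each role group (horizontal axis) under each way of computing (rows), beside all named genes. The pro-death median moves from 60.9 to 39.2 on design A alone, and the pro-survival median rises to 74.3 with the highest probe set per gene. The median of the caspase group, which includes the inflammatory caspases, stays left of that of all genes.

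Within role groups, most neighbours in the order of gene positions differed by more than the sum of their SDs between arrays. The exceptions were 2 of 7 neighbouring pairs of pro-survival genes (Bcl2l1 with Cflar, and Birc2 with Xiap), 4 of 13 of pro-death genes (Bbc3 with Bcl2l11, Bcl2l11 with Bak1, Bid with Fas, and Bad with Fasl) and 3 of 7 of caspases with Apaf1 (Casp6 with Casp8, Apaf1 with Casp9, and Casp4 with Casp12). These gaps are between different probes, and where probe sets of a gene disagree, as for Xiap, the mean that was ordered describes none of them. Of the 15 members with several probe sets, 7 had them on both sides of the floor, against 57.1% of all such genes, and the median span was 27.8 percentile points, against 37.6 for all.

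Replicates of the members agreed about as well as those of other genes. The median SD of log2 intensity was 0.16 over member probe sets and 0.13 over all. The design C probe set of Xiap was the only member probe set whose replicates differed by more than 1 log2 unit (1.15), against 1.75% of all probe sets. Replicate 3 read 131 there, beside 277 and 292. Without replicate 3 no member did. After centring the arrays, members on design B had a median deviation of -0.15 log2 units in replicate 3 from each probe set's own mean, and those on design C one of 0.15 in replicate 1 (10 probe sets each). On design A these medians stayed between -0.019 and 0.021.

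Other genes of the pathway had a median position of 67.2, beside 49.2 for the members and 52.1 for all named genes. On single replicates the median of these other genes was 67.0, 65.4 and 66.4. Of 38 listed, 31 were measured, and 27 of these (87.1%) had a probe set above the floor, beside 72.4% of all named genes. The highest were Bcl10, a signalling adaptor of NF-kappaB, at 98.0, Bcap31, an endoplasmic reticulum protein cleaved by Casp8, at 95.5, and Aifm1, the apoptosis-inducing factor of mitochondria, at 92.8. Bcl10 read 930, 1009 and 837. The lowest were Bnip3, a hypoxia-induced mitophagy receptor, at 4.48, Bcl2l10 at 16.9 and Cidea at 27.2. All 3 probe sets of Bnip3, on all designs, read at most 11.4. Cycs, the cytochrome c that Apaf1 binds, stood at 74.2 ± 2.1, and Tnfrsf1a, the main TNF receptor, at 81.2 ± 2.9.

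A list of 12 genes held 11 p53 targets and Mdm4, the partner of Mdm2. All were measured, and 11 (91.7%) had a probe set above the floor, beside 72.4% of all named genes. Their median position was 50.6 ± 2.5 (SD, n = 3), beside 52.1 for all named genes. The highest were Btg2 at 91.9, the cell cycle inhibitor Cdkn1a at 90.9 and the stress gene Gadd45a at 74.6. Cdkn1a read 259, 283 and 211 in a probe set and 286, 354 and 329 in another. The lowest by the mean over probe sets were Perp at 29.1, Trp53inp1 at 34.5 and Sesn1 at 43.6. The 3 probe sets of Trp53inp1, all on design B, ranged from percentile 1.27 to 72.6. The highest of them read 107, 77.6 and 73.5, above the floor on all arrays. Sesn1 read 211, 187 and 183 on design A and at most 4.34 on design B, so its mean describes neither probe set. Pmaip1 stood above every gene of this list.

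**Figure D4:**
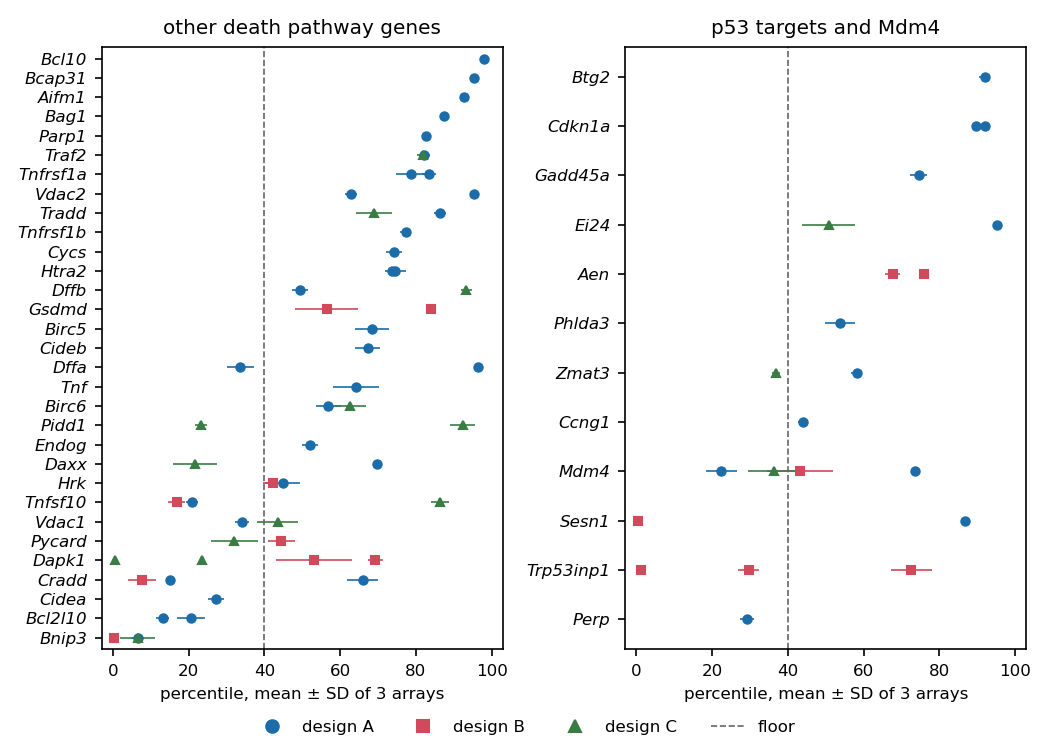
Mean percentile of each probe set (symbols, coloured by design) with the SD of 3 arrays (bars), for 31 other death pathway genes and for 11 p53 targets and Mdm4, with a dashed line at the floor. Bcl10, Bcap31 and Aifm1 lead the first panel and Btg2 and Cdkn1a the second, while Bnip3 and a probe set of Sesn1 lie at the far left.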

How the data were processed

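Per the labels, RNA of sorted cells was amplified and biotin-labelled, then hybridised to 3 array designs in 3 replicates each. The authors deposited linear intensities, with 1 value for each probe set on an array. The sources used here do not name the software or say how the values were summarised and scaled. The number of arrays limits the precision. Genes were named from the platform annotation (29131 of 36701 probe sets had 1 symbol, 724 several, and 6846 are unnamed here), and all 31 member symbols were identical in RefSeq for GRCm38.p6 through Entrez identifiers. Promoters are RefSeq's, of that build. Percentiles, floors, log2 intensities (with the array's smallest positive value in place of 7 exact zeros) and medians were computed in Python 3.11.15 with pandas 2.3.3 and checked on simulated data. There is 1 condition, so no test was run. Members and lists were chosen with earlier results of these data known. Every member is named, plus the 3 highest and 3 lowest genes of each pathway list. Cycs, Tnfrsf1a and single markers were named besides, after their values were seen. Alternatives were another floor, the highest probe set, plain probe sets (no letter before _at), design A alone, an added 50, quantile normalization and leaving out a replicate.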

Additional observations from a re-analysis of the deposited data

How the results depend on the processing

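Counts of members above the floor followed the floor. With the 60th percentile as floor, 24 member probe sets passed, and with the 90th percentile of tissue-foreign genes 22, against 39.1% and 38.8% of all probe sets. The second threshold rests on 2 probe sets on design B and fell below the floor there, so design A alone was used in the text, a choice made after seeing the data, and there 8 genes passed. Other settings kept these counts within 1.5 times. Leaving out a replicate gave 38 to 39 probe sets and 22 to 23 genes. The pro-survival median became 74.3 with the highest probe set per gene, 58.6 on design A, 62.3 with plain probe sets and 51.3 with percentiles among named probe sets. The pro-death median became 39.2 on design A, and the caspase median 57.9 with the highest probe set per gene. Without a replicate the medians ranged from 52.2 to 54.6, from 59.7 to 61.4 and from 45.1 to 48.1. With 50 added before log2, 0 member probe sets ranged over 1 log2 unit, and 0 to 1 did without a replicate. No paired analysis was possible because arrays of equal number hold different probe sets and there is 1 condition. Equal numbers on the designs were taken as 1 replicate for the SD of medians, and whether they share RNA is not stated.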
